A study of Homo sapiens with 8 samples.

Results

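The genes described here are LIF, EBI3, CSF3 and IL11, cytokine genes of the interleukin 6 (IL6) family and the colony-stimulating factors. They were taken from a list of 6 such genes, which also named CSF2 and IL6. A gene was kept if a probe set (a group of array probes read as 1 value) was paired with its symbol, and 4 of the 6 were, each by 1 probe set, among 14884 genes with a symbol. CSF2 and IL6 were not analysed here. The list was chosen by earlier results of these same arrays, the levels of cytokine genes in the 4 groups and their differences from shGFP, so the values of the 4 genes are given as a description. Their intervals and calls, where printed, are not evidence for a difference. All 4 passed a filter that removes the dimmest 30% of genes.

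RNA came from SCC13, an established line of human cutaneous squamous cell carcinoma, and was hybridised to 8 whole-transcript microarrays. The groups were shEZH2, shRING1B, shBMI1 and the control shGFP, a hairpin against a jellyfish protein that the cells do not make, with 2 arrays each. EZH2 is the enzyme that methylates histone H3 in Polycomb repressive complex 2. RING1B (gene RNF2), a ubiquitin ligase for histone H2A, works with its partner BMI1 in Polycomb repressive complex 1. The series title names the question, whether RING1B and EZH2 repress proinflammatory function in this tumour. All cells carried a short hairpin, and the labels do not give the vector, whether the cells were 1 clone or a pool, or whether replicate arrays stand for separate cultures. P-values can then speak only of array-to-array spread, part of which may be technical.

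Cytokines of the IL6 family signal through receptors that contain the shared chain gp130 (gene IL6ST), which activates JAK kinases and the transcription factor STAT3. SOCS proteins, made in response to STAT activity, then shut the signal down. LIF binds the LIF receptor together with gp130, and IL11 binds IL11RA with gp130. EBI3 is a secreted, receptor-like protein that acts as the partner subunit of interleukin 27 and of a second dimeric cytokine. CSF3 (G-CSF) drives the production and release of neutrophils through its own receptor, CSF3R. Keratinocytes and the carcinomas that arise from them can secrete several of these factors when inflammatory signals act on them.

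Promoter sequences show how a pair of these genes with different patterns compare just ahead of the gene. The RefSeq promoter table (GRCh38.p14) held entries for EBI3 and IL11, both on chromosome 19. The 250 bases before each gene's start are given 5′ to 3′ on the gene's strand, with capitals marking a TGAGTCA match, a form of the site bound by AP-1 (FOS and JUN proteins). EBI3 lies on the plus strand, and its stretch is chr19:4229273-4229522. IL11 lies on the minus strand, and its stretch is chr19:55370464-55370713.
EBI3: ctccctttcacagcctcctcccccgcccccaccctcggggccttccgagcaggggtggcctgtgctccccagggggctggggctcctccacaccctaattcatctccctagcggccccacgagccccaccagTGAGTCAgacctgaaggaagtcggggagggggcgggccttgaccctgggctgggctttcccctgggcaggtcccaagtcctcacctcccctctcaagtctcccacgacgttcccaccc
IL11: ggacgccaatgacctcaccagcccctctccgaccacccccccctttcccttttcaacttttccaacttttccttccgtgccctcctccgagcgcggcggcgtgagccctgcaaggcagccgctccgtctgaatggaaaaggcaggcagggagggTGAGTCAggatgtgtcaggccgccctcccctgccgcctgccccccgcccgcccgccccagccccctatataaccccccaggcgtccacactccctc

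The TGAGTCA match began 118 bases before the start of EBI3 and 96 bases before that of IL11. On either strand this motif occurred in 4.2% of 35116 promoter stretches of the same length. The EBI3 stretch also held a match to the NF-kB consensus, GGGGCCTTCC, beginning 214 bases before the start, and IL11 had none. That consensus occurred in 9.96% of stretches. Neither stretch matched TTGCNNAA, a C/EBP motif found in 9.05%, or TTCNNNGAA, a STAT motif found in 6.57%, and the matches of different motifs did not overlap. CG dinucleotides numbered 9 in the EBI3 stretch and 16 in the IL11 stretch, where the median over all stretches was 11. A match to letters is a description of the sequence, and binding was not measured. The AP-1 motif was present ahead of both genes, and its part in their expression was not tested.

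Array medians lay between 5.49 and 5.52, and array values over genes correlated at 0.992 to 0.996. EZH2 was at 8.95 and 9.03 with shEZH2, 9.62 and 9.86 with shRING1B, 9.74 and 9.93 with shBMI1, and 9.83 and 9.97 with shGFP. The shEZH2 arrays were the lowest, by -0.91 ± 0.12 from shGFP (log2 difference and its SE), which matches their label. Without a probe set named BMI1 or RNF2, the other knockdowns were not checked here. Every array is labelled as SCC13 cells, but the shEZH2 titles start with SCCL3 where the other 6 start with SCC13. Every difference that involves shEZH2 is touched by this, those of LIF, EBI3 and CSF3 included. In each, an effect of the hairpin and one of a different line or batch behind that title cannot be told apart.

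LIF, a growth and differentiation factor that also acts in inflammation, separated the arrays into a high and a low pair of groups. Its log2 expression was 6.96 and 6.98 with shEZH2, 7.22 and 7.06 with shRING1B, 6.23 and 6.19 with shBMI1, and 6.31 and 6.28 with shGFP. All 4 arrays of shEZH2 and shRING1B lay above all 4 arrays of shBMI1 and shGFP. The log2 difference from shGFP was 0.67 ± 0.09 (SE of the fit over all 8 arrays, n = 2 per group) with shEZH2, a 1.59-fold higher level. With shRING1B it was 0.84 ± 0.09, or 1.79-fold higher, and with shBMI1 it was -0.08 ± 0.09. In bulk RNA, more cells that make a transcript and more transcript per cell cannot be told apart.

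The order of the LIF level was shRING1B, shEZH2, shGFP and shBMI1. The upper neighbours differed little, with shEZH2 minus shRING1B at -0.17 ± 0.09 and a gap of 0.08 between their nearest arrays. The lower neighbours differed by less than 1 SE, although the shBMI1 arrays lay below the shGFP arrays. Between the pairs the step was large, with shRING1B minus shBMI1 at 0.93 ± 0.09 and shEZH2 minus shBMI1 at 0.76 ± 0.09. These 2 differences do not involve the shGFP arrays. Ordered by the difference from shGFP, highest first, LIF ranked 15 of 14884 with shRING1B and 107 with shEZH2.

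EBI3 was high with shEZH2 alone among the 4 hairpins. Its log2 expression was 8.01 and 7.69 with shEZH2, 7.02 and 6.71 with shRING1B, 6.70 and 6.31 with shBMI1, and 6.59 and 6.41 with shGFP. Both shEZH2 arrays lay above the other 6, with a gap of 0.67 to the nearest, and the shRING1B arrays lay just above the remaining 4. The difference from shGFP was 1.35 ± 0.17 with shEZH2, a 2.55-fold higher level. It was 0.37 ± 0.17 with shRING1B and 0.01 ± 0.17 with shBMI1. The shRING1B value was 0.21 without shRING1B replicate 1 and 0.52 without shRING1B replicate 2, and the shBMI1 value was -0.19 without shBMI1 replicate 1 and 0.20 without shBMI1 replicate 2. EBI3 ranked 11 of 14884 among differences with shEZH2.

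The EBI3 level thus fell into a different order from that of LIF, with shEZH2 first and shRING1B clearly below it. The difference of shEZH2 minus shRING1B was 0.98 ± 0.17 for EBI3, or 1.98-fold, against -0.17 ± 0.09 for LIF. The lower 3 groups were near each other, shRING1B minus shBMI1 being 0.36 ± 0.17, with a gap of only 0.01 between their nearest arrays. In every group the array numbered 1 was above the array numbered 2 for EBI3, by 0.32 with shEZH2, 0.31 with shRING1B, 0.39 with shBMI1 and 0.18 with shGFP. Nothing in the labels ties arrays of equal number to 1 culture or day. Taken within the numbers, shEZH2 minus shGFP for EBI3 was 1.42 and 1.28, and shRING1B minus shGFP was 0.43 and 0.30.

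CSF3, the granulocyte colony-stimulating factor, was higher with shEZH2 and shRING1B but varied most between arrays of 1 hairpin. Its log2 expression was 9.61 and 9.35 with shEZH2, 9.43 and 9.03 with shRING1B, 8.07 and 9.004 with shBMI1, and 8.16 and 8.30 with shGFP. The shEZH2 and shRING1B arrays overlapped each other and lay above both shGFP arrays, while the 2 shBMI1 arrays lay 0.93 apart, one of them below shGFP and the other close under the lower shRING1B array. The difference from shGFP was 1.25 ± 0.27 with shEZH2, or 2.38-fold, and 1.00 ± 0.27 with shRING1B, or 2.00-fold. With shBMI1 it was 0.31 ± 0.27, with a 95% interval of -0.32 to 0.94, and this value rested on which array was kept. It was -0.16 without shBMI1 replicate 2 and 0.77 without shBMI1 replicate 1. These arrays therefore do not show whether CSF3 with shBMI1 lay at the shGFP level or well above it.

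In the order of CSF3 levels, shEZH2 came first, then shRING1B, shBMI1 and shGFP. Neighbours in this order did not differ beyond the spread of their arrays. The difference of shEZH2 minus shRING1B was 0.25 ± 0.27, and that of shRING1B minus shBMI1 was 0.69 ± 0.27, with a gap of 0.03 between the nearest arrays. The second value was 0.23 without shBMI1 replicate 1 and 1.16 without shBMI1 replicate 2. CSF3 ranked 13 of 14884 with shEZH2 and 6 of 14884 with shRING1B among differences from shGFP. The ranks are high in both comparisons, but the comparisons share the shGFP arrays.

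IL11, a cytokine of fibrosis and of bone and blood cell development, moved over a narrow range. Its log2 expression was 7.57 and 7.71 with shEZH2, 8.01 and 7.75 with shRING1B, 7.76 and 7.74 with shBMI1, and 7.60 and 7.63 with shGFP. The 8 arrays spanned 0.44, less than for LIF (1.03), CSF3 (1.54) or EBI3 (1.70). The shEZH2 arrays lay on both sides of the shGFP arrays, and the shRING1B and shBMI1 arrays lay above them by small gaps of 0.12 and 0.11. The difference from shGFP was 0.03 ± 0.11 with shEZH2, with a 95% interval of -0.22 to 0.27. It was 0.26 ± 0.11 with shRING1B and 0.13 ± 0.11 with shBMI1. In order of level, shRING1B came first, then shBMI1, shEZH2 and shGFP. The top step, shRING1B minus shBMI1, was 0.13 ± 0.11 with overlapping arrays, and the lower steps were no larger than their standard errors. The shRING1B value was 0.14 without shRING1B replicate 1, its high array, and 0.39 without replicate 2.

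**Figure D1:**
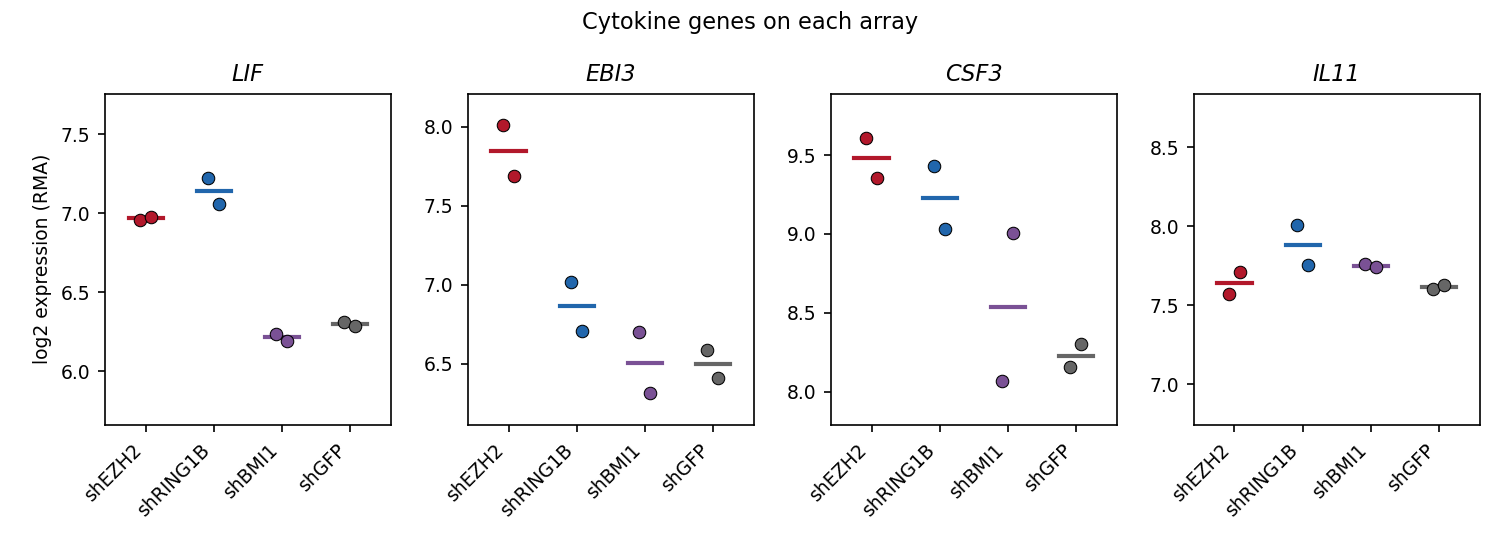
Log2 expression (RMA values, vertical axis) of LIF, EBI3, CSF3 and IL11 on each of the 8 arrays, by hairpin. Points are arrays and bars are group means. LIF is high with shEZH2 and shRING1B, EBI3 is high with shEZH2, CSF3 spreads by 0.93 within shBMI1, and IL11 spans 0.44 in all.

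Against shGFP, EBI3 and LIF passed limma's adjusted p of 0.05 with shEZH2, which is 2 of the 4 genes, where 0.732% of all 14884 genes passed. With shRING1B and shBMI1, 0 of the 4 passed, where 0% of all genes passed. These contrasts helped choose the genes, so nothing is read from the counts. The arrays of LIF, EBI3 and CSF3 with shEZH2 all lay above those of shGFP, as did 23.1% of all genes. None of the 4 lay below, as 27% of all genes did. With shRING1B all 4 genes lay above, beside 18.2% of all genes above and 19.1% below, and with shBMI1 only IL11 did, beside 14%, while LIF lay below, beside 17.8%. Between shEZH2 and shRING1B, EBI3 lay above without overlap, as did 22.6% of all genes, and LIF and IL11 lay below, as did 25.6%. Between shEZH2 and shBMI1, LIF, EBI3 and CSF3 lay above, beside 22.9%, and IL11 lay below, beside 24.1%. Between shRING1B and shBMI1, LIF, EBI3 and CSF3 lay above, beside 19.3%, and none lay below, beside 17.1%. Without either one of the shEZH2 arrays, no gene was called with shEZH2 (0 of 14884). The calls of LIF and EBI3 also ended without either one of the shGFP arrays and when all probe sets were tested, and that of LIF ended in a fit of only the 4 arrays compared. Leaving out 1 array kept the differences at 0.66 to 0.68 for LIF and 1.19 to 1.51 for EBI3. Other fits added calls. LIF with shRING1B passed under a trended robust variance, where 0.242% of all genes did. It also passed without the dimmest 30% of genes (0.106% of genes) and among protein-coding genes alone (9 of 11916). CSF3 with shEZH2 passed without the dimmest 30% of genes (3.93%) and in the fit of only the 4 arrays compared (39 of 14884). It also passed when either shBMI1 array was left out, which leaves 1 array in that group. Nothing is read from these calls either. With 2 arrays against 2, an exact two-sided permutation test cannot give a p below 0.333.

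**Figure D2:**
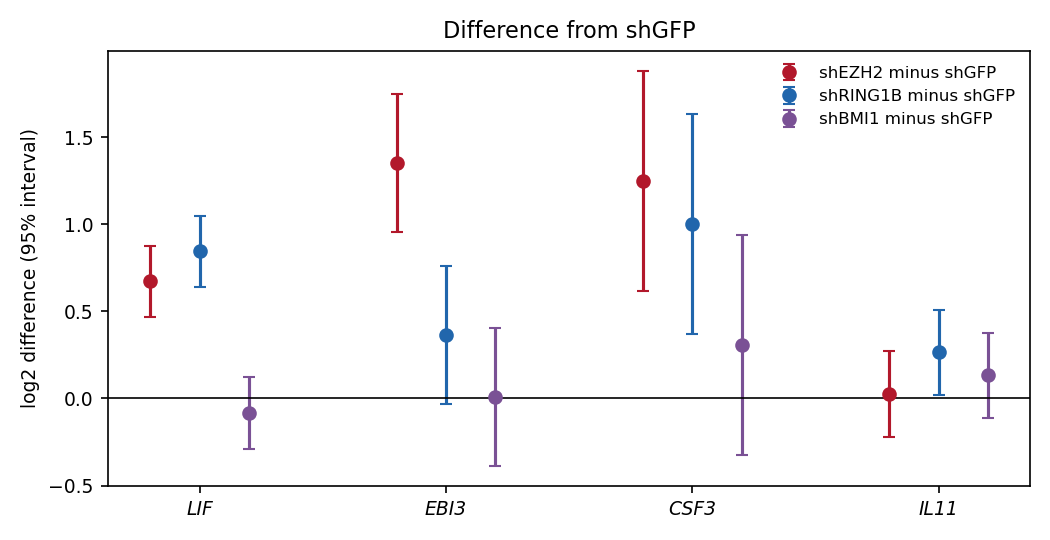
Log2 difference from shGFP (vertical axis) for each gene with shEZH2, shRING1B and shBMI1, 2 arrays per group. Points are differences from the fit and bars their 95% intervals, not adjusted for the choice of genes. LIF is at 0.67 with shEZH2 and 0.84 with shRING1B, and EBI3 at 1.35 and 0.37. The shBMI1 intervals include 0 for all 4 genes.

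Over the 8 arrays the genes resembled each other to unequal degrees. Pearson's r was 0.80 between LIF and CSF3, 0.70 between EBI3 and CSF3 and 0.66 between LIF and EBI3. IL11 had r of 0.43 with LIF, 0.28 with CSF3 and -0.14 with EBI3. These correlations describe 4 groups of 2 arrays that share hairpins, and no p is given.

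The genes most like each cytokine were sought by the highest r over the 8 arrays. The search took protein-coding genes that span at least 0.5 log2 units, 2782 for IL11 and 2781 for each other cytokine. Genes picked this way share the cytokine's pattern by choice, so the likeness is a description. For LIF they were BMP2, a bone morphogenetic protein (r = 0.98), TPPP3, a tubulin-binding protein (0.97), and STC1, the secreted hormone stanniocalcin 1 (0.96). BMP2 was at 7.35 and 7.33 with shEZH2, 7.42 and 7.19 with shRING1B, 6.57 and 6.57 with shBMI1, and 6.60 and 6.49 with shGFP, so its arrays split into the same high and low groups as those of LIF. For EBI3 they were MXD1, a partner of MAX that opposes MYC (0.98), STC2, the second stanniocalcin (0.98), and FIBCD1, a chitin-binding membrane receptor (0.98). STC2 was at 10.24 and 10.22 with shEZH2, 9.39 and 9.20 with shRING1B, 8.87 and 8.57 with shBMI1, and 8.98 and 8.51 with shGFP, which is high with shEZH2 and intermediate with shRING1B.

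For CSF3 they were INSIG1, a regulator of sterol synthesis (r = 0.95), IRAK2, a kinase of interleukin 1 and Toll-like receptor signalling (0.95), and ISG20, an interferon-induced exonuclease (0.95). All 3 were higher on the second shBMI1 array than on the first, as CSF3 was, but they were picked for following CSF3 over these same arrays. IRAK2 was at 8.53 and 8.52 with shEZH2, 8.54 and 8.17 with shRING1B, 7.83 and 8.09 with shBMI1, and 7.91 and 7.86 with shGFP. For IL11 they were SORCS3, a sorting receptor (0.93), JAG1, a Notch ligand (0.92), and HOXB2, a homeobox factor (0.92), and each had its highest array in shRING1B. JAG1 was at 9.59 and 9.75 with shEZH2, 10.65 and 10.16 with shRING1B, 10.10 and 9.88 with shBMI1, and 9.89 and 9.77 with shGFP.

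**Figure D3:**
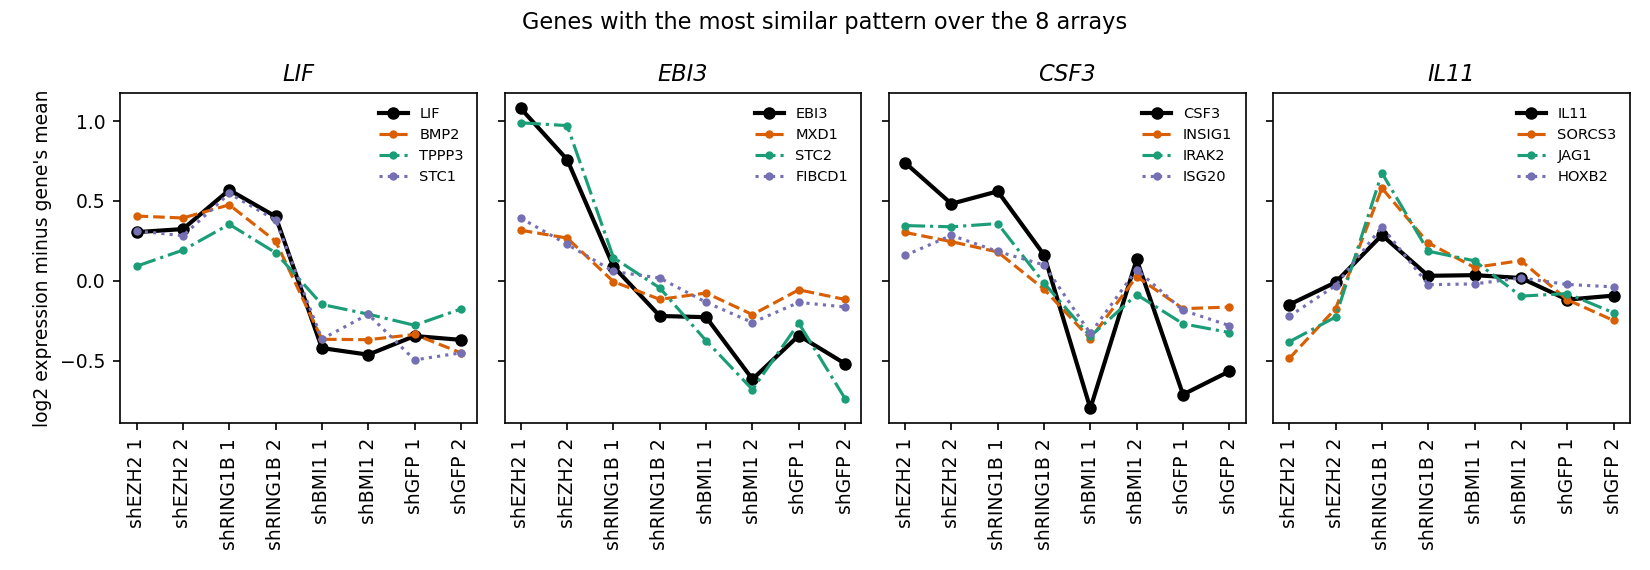
Log2 expression minus each gene's mean (vertical axis) on the 8 arrays (horizontal axis) for each cytokine gene in black and the 3 genes with the highest Pearson r to it in colour. Lines join arrays to guide the eye. BMP2 follows LIF at r = 0.98 and MXD1 follows EBI3 at r = 0.98. IRAK2, like CSF3, is higher on the second shBMI1 array, by a smaller step. All were picked for their likeness over these same arrays.

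Next, 90 other genes of the pathway were examined in 7 lists, of which 60 were measured. No listed gene passed limma's adjusted threshold over all genes with shEZH2, shRING1B or shBMI1 against shGFP. The shares of all genes that passed it were 0.732%, 0% and 0%. At an unadjusted p under 0.05 there were 17, 8 and 2 of the 60 in that order, where the shares of all 14884 genes were 16.2%, 8.60% and 5.58%. With shEZH2, 41 of the 60 were above 0, with a median of 0.09, where the median of all genes was -0.01. The median was 0.03 with shRING1B and -0.01 with shBMI1.

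Among 6 measured ligands related to the cytokines, with shEZH2 the macrophage growth factor CSF1 was at 0.50 ± 0.13 (adjusted p = 0.122) and the gp130 ligand CTF1 at 0.37 ± 0.13 (adjusted p = 0.214), by limma. OSM, the gp130 cytokine whose gene lies beside LIF, was at -0.10 ± 0.10 with both shEZH2 and shRING1B. With shRING1B, CSF1 was at 0.25 ± 0.13 and IL31 at 0.18 ± 0.12. With shBMI1, IL31 was at 0.18 ± 0.12, CTF1 at -0.15 ± 0.13 and CSF1 at 0.14 ± 0.13. OSM and IL31 lie among the dimmest 30% of genes. The median of the ligands was 0.07, -0.01 and 0.06 with shEZH2, shRING1B and shBMI1.

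Among 7 measured receptors, 6 were above 0 with shEZH2, with a median of 0.23. The oncostatin M receptor OSMR was at 0.32 ± 0.08 (limma adjusted p = 0.13), the interleukin 6 receptor IL6R at 0.30 ± 0.10 and the CSF1 receptor CSF1R at 0.25 ± 0.15. The LIF receptor gene LIFR gave the largest receptor value with shRING1B, where it was at 6.96 and 7.32, against 6.70 and 6.64 with shGFP. Its difference was 0.47 ± 0.12 (limma adjusted p = 0.347). IL31RA was at 0.23 ± 0.16 and CNTFR, the receptor of ciliary neurotrophic factor, at 0.09 ± 0.11 with shRING1B. With shBMI1, LIFR was at 0.26 ± 0.12, IL6R at 0.20 ± 0.10 and CSF3R at 0.15 ± 0.13. CSF3R lies among the dimmest 30% of genes. The shared chain IL6ST and the receptors of IL11, interleukin 27 and CSF2 were not analysed here.

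The kinases, adaptors and transcription factors that carry the signal had values on both sides of 0. Of 9 measured transducers the median was -0.05 with shEZH2, 0.01 with shRING1B and -0.01 with shBMI1. With shEZH2, STAT5A was at 0.62 ± 0.29 and its relative STAT5B at -0.20 ± 0.13, and the kinase JAK2 was at -0.35 ± 0.11 (limma adjusted p = 0.185). The STAT5A control arrays stood at 5.79 and 6.75, so its value depended on which was used. With shRING1B, STAT5B was at 0.30 ± 0.13, the adaptor GAB1 at -0.19 ± 0.09 and STAT5A at 0.17 ± 0.29. With shBMI1, GAB1 was at -0.34 ± 0.09, STAT5B at 0.08 ± 0.13 and the kinase TYK2 at -0.04 ± 0.11.

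Inhibitors made in response to the signal and genes that STAT3 activates were examined as readouts of it. Of 4 measured inhibitors, SOCS2 was at 0.33 ± 0.09 with shEZH2 (limma adjusted p = 0.154), SOCS1 at 0.08 ± 0.08 and CISH at -0.07 ± 0.08. SOCS3, the main brake on gp130 signals, was at 7.82 and 7.62 with shEZH2, 7.73 and 7.39 with shRING1B, 7.92 and 7.61 with shBMI1, and 7.80 and 7.69 with shGFP. These groups overlapped, and its difference with shRING1B was -0.19 ± 0.15. With shRING1B, SOCS1 was at -0.13 ± 0.08 and SOCS2 at 0.07 ± 0.09, and with shBMI1, SOCS1 was at -0.23 ± 0.08, CISH at -0.10 ± 0.08 and SOCS2 at 0.07 ± 0.09.

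Of 19 measured STAT3 target genes, 14 were above 0 with shEZH2, 9 with shRING1B and 7 with shBMI1, with medians of 0.06, -0.01 and -0.02. The angiogenic factor VEGFA was at 0.56 ± 0.15 with shEZH2 (limma adjusted p = 0.122) and 0.44 ± 0.15 with shRING1B (0.44). With shEZH2 the iron-binding defence protein LCN2 was at 0.41 ± 0.10 (limma adjusted p = 0.0999) and the adhesion molecule ICAM1 at 0.38 ± 0.16. With shRING1B the fibrinogen chain FGG was at -0.32 ± 0.14 and ICAM1 at 0.28 ± 0.16. With shBMI1 FGB was at 0.27 ± 0.12, FGG at -0.24 ± 0.14 and VEGFA at 0.17 ± 0.15. FGB and FGG lie among the dimmest 30% of genes.

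Transcription factors known to bind cytokine promoters made up the next list, of NF-kB, AP-1 and related proteins. With shEZH2, 10 of 11 were above 0, with a median of 0.27. NFKB2, a subunit of NF-kB, was at 0.51 ± 0.13 (limma adjusted p = 0.122), and the AP-1 proteins JUN and JUND were at 0.48 ± 0.12 (0.117) and 0.41 ± 0.10 (0.111). With shRING1B, 8 of 11 were above 0, with a median of 0.16, with NFKB2 at 0.33 ± 0.13, the stress factor ATF3 at 0.28 ± 0.09 and ETS1 at -0.28 ± 0.11. With shBMI1 the median was -0.01, with JUND at -0.19 ± 0.10, FOSL2 at 0.19 ± 0.08 and FOSL1 at 0.07 ± 0.13.

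Many cytokine mRNAs are short-lived because proteins bind AU-rich or stem-loop elements in them and bring about their decay. Of the listed regulators of such mRNAs, 4 were measured. ZC3H12A (regnase-1) is an endonuclease that cleaves IL6 mRNA. Its level was 9.46 and 9.45 with shEZH2, 9.15 and 8.90 with shRING1B, 8.65 and 9.21 with shBMI1, and 8.70 and 8.78 with shGFP. Its shEZH2 arrays lay above the other 6, and its shBMI1 arrays lay apart, with the second the higher, as for CSF3. Its difference was 0.71 ± 0.17 with shEZH2 (limma adjusted p = 0.113), 0.29 ± 0.17 with shRING1B and 0.19 ± 0.17 with shBMI1. KHSRP, which promotes decay, was at -0.20 ± 0.09 with shEZH2 and -0.05 ± 0.09 with shBMI1, and RC3H1 (roquin-1) at 0.14 ± 0.08, 0.15 ± 0.08 and 0.10 ± 0.08 with shEZH2, shRING1B and shBMI1. TIA1 was at -0.17 ± 0.15 with shRING1B.

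The count of listed genes with shEZH2 differed between fits that changed the variance model, the genes tested or the arrays used. It was 7 with a trended robust variance (CSF1, OSMR, VEGFA, NFKB2, JUN, JUND and ZC3H12A, all higher), where 4.35% of all genes passed. It was 2 without the dimmest 30% of genes (LCN2 and JUND), where 3.93% of all genes passed. ZC3H12A also passed when either shBMI1 array was left out, which leaves 1 array in that group, and nothing is read from that call. With shRING1B and shBMI1 the count stayed at 0 in all alternatives run.

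**Figure D4:**
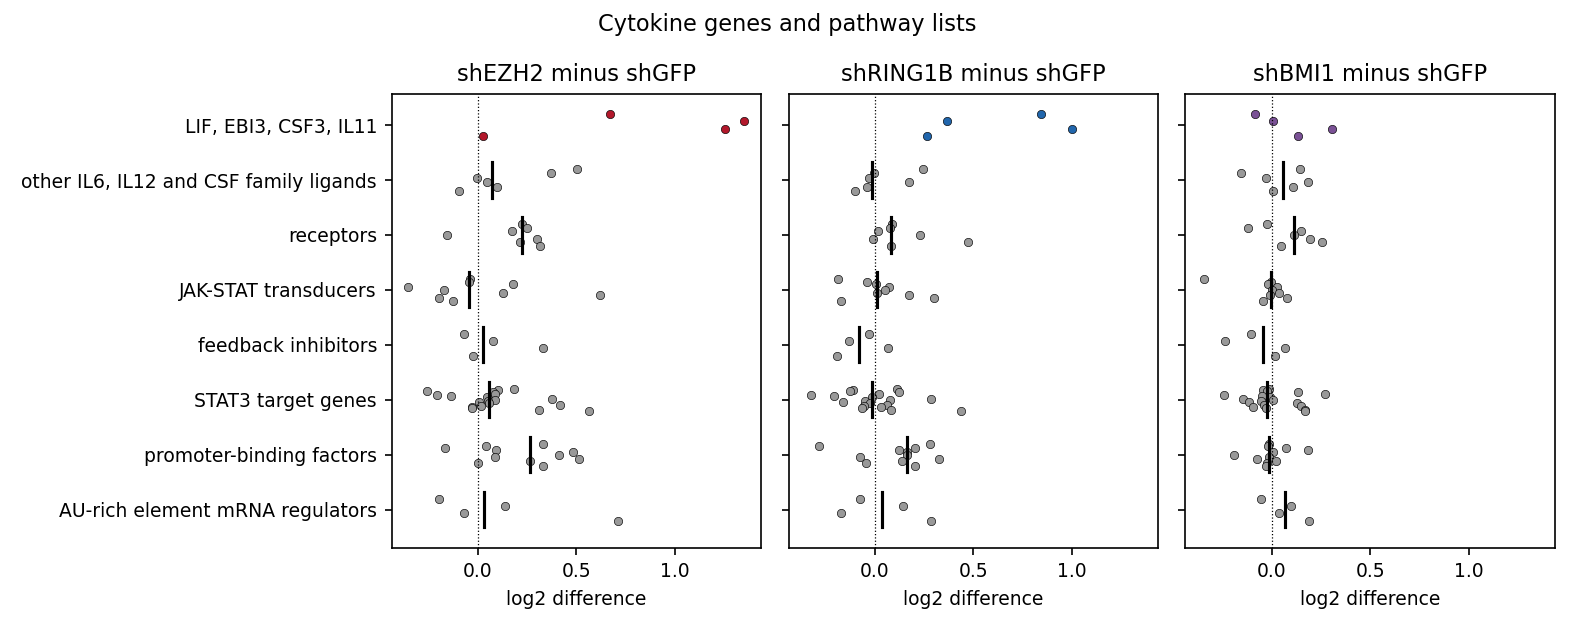
Log2 difference from shGFP (horizontal axis) with shEZH2, shRING1B and shBMI1 for LIF, EBI3, CSF3 and IL11 in colour, which were chosen with these values known, and for 7 pathway lists in grey, with each list's median as a bar. With shEZH2 the receptor median is at 0.23 and the median of promoter-binding factors at 0.27, and 0 listed genes passed the adjusted threshold.

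Genes beside each cytokine gene in the RefSeq order were read to see whether a wider stretch differed. The 2 nearest measured protein-coding genes on each side gave 16 neighbours, and 0 passed limma's adjusted threshold with any of the 3 hairpins. Of all 14884 genes, 0.732% passed with shEZH2 and 0% with shRING1B or shBMI1, so nothing is read from this count. Their median was 0.00 with shEZH2, 0.05 with shRING1B and -0.01 with shBMI1. Beside EBI3, YJU2 had the largest value, -0.39 ± 0.09 with shEZH2, opposite in sign to EBI3. Beside LIF, HORMAD2, which lies among the dimmest 30% of genes, was at 0.36 ± 0.13 with shRING1B and 0.01 ± 0.13 with shEZH2. Beside CSF3, GSDMA, a pore-forming protein of skin, was at -0.45 ± 0.10 with shBMI1, and beside IL11, TMEM238 was at -0.41 ± 0.16 with shBMI1.

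**Figure D5:**
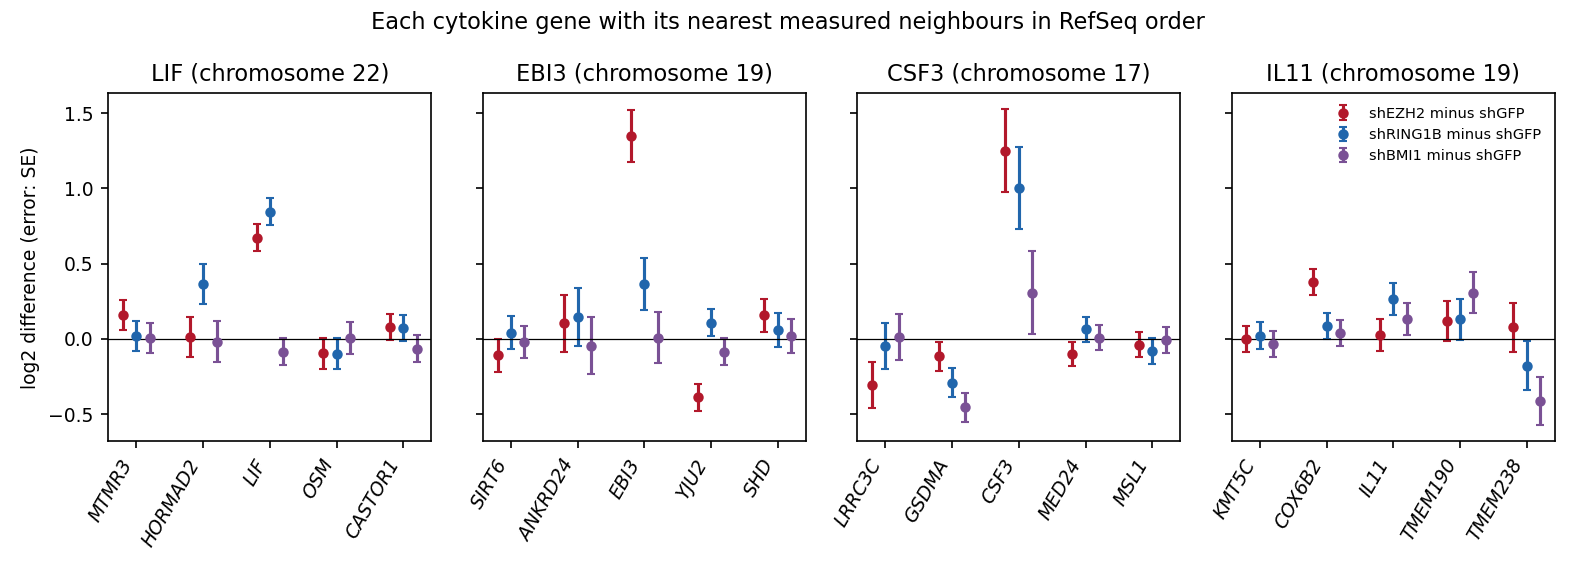
Log2 difference from shGFP (vertical axis, error bars SE) of each cytokine gene, in the middle of its panel, and of the 2 nearest measured protein-coding genes on each side in RefSeq order. EBI3 stands at 1.35 with shEZH2 between neighbours of 0.10 and -0.39, and LIF at 0.84 with shRING1B between neighbours of 0.36 and -0.10. These neighbours of LIF, HORMAD2 and OSM, lie among the dimmest 30% of genes.

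Markers of cell types were read beside the cytokines. Of all 14884 genes, 0.732% passed limma's adjusted threshold with shEZH2. With shRING1B and shBMI1 0% passed, so no marker could pass there. Of 15 keratinocyte markers 6 were measured, KRT5, KRT14, KRT16, DSG3, PKP1 and SFN, and all 6 passed the filter on dim genes. Their mean per array was 9.31 to 9.33 with shEZH2, 9.13 to 9.32 with shRING1B and 9.22 to 9.38 with shBMI1, against 9.46 to 9.54 with shGFP. With shEZH2, DSG3 went the other way, at 10.33 and 10.37 against 9.76 and 10.09 with shGFP, while the other keratinocyte markers had lower means. Of 12 leukocyte markers 5 were measured, with a mean per array of 7.35 to 7.40 with shEZH2, 7.14 to 7.25 with shRING1B and 7.11 to 7.14 with shBMI1, against 7.11 to 7.20 with shGFP, and 0 of the 5 passed the test. The defining marker PTPRC was not analysed here, and CSF1R also stands in the receptor list. Of 8 fibroblast markers 3 were measured, with a mean per array of 6.26 to 6.47 with shEZH2, 5.92 to 5.99 with shRING1B and 5.96 to 6.17 with shBMI1, against 5.73 to 5.88 with shGFP. DCN rose with shEZH2 (0.93 ± 0.10, limma adjusted p = 0.0109), and LUM was at 0.89 ± 0.23 and THY1 at -0.15 ± 0.15. LUM lies among the dimmest 30% of genes. Of 4 measured melanocyte markers 1 passed, MLANA, which rose with shEZH2 (0.64 ± 0.11, limma adjusted p = 0.046) but lies among the dimmest 30% of genes. The other melanocyte markers were at -0.15 ± 0.12 (PMEL), -0.01 ± 0.15 (TYR, also among the dimmest) and 0.00 ± 0.09 (MITF), and 0 of 3 endothelial markers passed. The endothelial mean per array was 5.73 to 5.79 with shEZH2 and 5.88 to 6.01 with shRING1B. It was 5.84 to 6.14 with shBMI1 and 5.74 to 5.79 with shGFP. DCN and MLANA did not pass when any one of the shEZH2 or shGFP arrays was left out, and MLANA did not when either shRING1B array was left out, with values of 0.85 to 1.02 for DCN and 0.62 to 0.67 for MLANA. The part of these in the cytokine values was not tested.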

How the data were processed

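Values were the authors' deposited log2 expression per probe set, made with RMA, as listed with limma in the submitters' processing notes. Neither versions nor the genome build were given in the sources used here. RMA brings arrays to a common distribution and compresses differences of dim genes. The table held 53617 probe sets, 16098 of them with 1 symbol in the array's annotation. The probe set with the highest mean represented each of 14884 genes. limma 3.58.1 in R 4.3.3 fitted a mean per hairpin over all 8 arrays (4 residual degrees of freedom) with eBayes. P-values were two-sided and adjusted by Benjamini-Hochberg over all genes. Errors after differences are standard errors. The members and lists were chosen with earlier results of these data known. Named genes were, per list and comparison, those called and the 3 with the largest absolute difference, the largest neighbour of each member and the 3 genes of highest r. SOCS3 and DSG3 array values, LUM, THY1 and the melanocyte markers were named after their values were seen. The fit was tested on simulated data. Precision is limited by the number of arrays.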

Additional observations from a re-analysis of the deposited data

How the results depend on the processing

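The differences of LIF, EBI3, CSF3 and IL11 in 6 comparisons were recomputed under 19 alternatives, and 426 of 444 values moved by less than the spread between arrays. The other 18 came from leaving out 1 array, and CSF3 with shBMI1 ranged from -0.16 to 0.77. Only quantile normalization, median centring and leaving out an array of either compared group could change a difference. The remaining alternatives keep the same difference by construction, so most of the 426 were fixed in advance and do not measure stability. Genes called with shEZH2 numbered 109, but 39 with only the 4 arrays compared, 648 under a robust variance with a trend, 409 after dropping the dimmest 30% of genes, 174 under array weights, 169 when only protein-coding genes were tested, 4 when all probe sets were tested, and 0 to 91 leaving out 1 array. They numbered 0 without shEZH2 replicate 1 or 2, 19 without shGFP replicate 1 and 6 without shGFP replicate 2. With shRING1B the count of 0 became 36 under the trended variance, 11 after dropping the dimmest genes, 9 among protein-coding genes only and 2 after quantile normalization. With shBMI1 it was 0 throughout. Listed pathway genes called with shEZH2 numbered 0, but 7 under the trended variance, 2 after dropping the dimmest genes and 0 to 1 leaving out 1 array. The cause of these changes was not tested.

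With the replicate block 108 genes were called with shEZH2, and the SE of EBI3 was 0.09, against 0.17 without it. Deviations of equally numbered arrays correlated at 0.00 to 0.25 between groups. Such values do not settle whether equal numbers mark paired samples, and the labels do not say. Leaving out 1 array also turned EBI3 with shBMI1 (-0.19 to 0.20, and also below 0 after quantile normalization and median centring), IL11 with shEZH2 (-0.04 to 0.10) and 7 differences of named pathway genes, none of which had passed. With shRING1B, IL31RA ranged from -0.0209 to 0.48, STAT5A from -0.31 to 0.65 and SOCS2 from -0.00721 to 0.14. With shBMI1, SOCS2 ranged from -0.00884 to 0.14, FOSL1 from -0.00583 to 0.16, KHSRP from -0.10 to 0.000866 and ZC3H12A from -0.0934 to 0.47.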
